A study of Arabidopsis thaliana with 12 samples.

Results

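Transcript levels in clf seedlings were set directly against those in lhp1 seedlings, the mutants of the enzyme that writes a Polycomb mark and of a protein that reads it. Every locus with at least 1 FPKM in either mutant was taken. FPKM counts sequenced fragments per unit of transcript length and corrects for the depth of the library. This rule kept 18455 of 31788 loci, and the 18371 of them with a gene name were compared. The locus just inside the limit was AT1G51870, at 0.889 FPKM in clf and 1.00 FPKM in lhp1, and the locus just outside was AT1G54400, at 0.136 FPKM in clf and 0.998 FPKM in lhp1. The groups were Arabidopsis thaliana whole seedlings of clf, of lhp1 and of wild type (WT), all 14 days old, with 3 libraries per genotype by their titles. The labels name no allele, accession or agent for any of them, give the same growth conditions for all, and do not say whether the libraries of a genotype came from separate cultures. A further mutant, pkl, belongs to the series and is used only as a yardstick.

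CLF (CURLY LEAF) is a histone methyltransferase of Polycomb repressive complex 2 that trimethylates lysine 27 of histone H3, a mark of silenced developmental genes. LHP1 (LIKE HETEROCHROMATIN PROTEIN 1, also named TFL2) carries a chromodomain that binds this mark, and it is counted among the plant Polycomb proteins that keep marked genes silent. Both mutants are known for early flowering, small curled leaves and floral homeotic genes expressed in leaves. SWN, a close relative of CLF, places the same mark and remains intact in clf plants.

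The authors' deposited tables give 1 FPKM value per genotype and locus, so clf and lhp1 were 1 value each at every locus and no replicate test of their difference was possible. Differences are log2((FPKM clf + 1)/(FPKM lhp1 + 1)), which understates the change of weakly expressed genes, and a locus was counted as different at 2-fold or more on this scale. As an error, each mutant's standard error against WT was read back from the authors' test statistic, and both were combined into an error bound of the log2 difference. The bound counts the WT error 2 times, so it is an upper limit of the error that the authors' test worked with. A locus was past the bound where log2(FPKM clf/FPKM lhp1), without the added 1, exceeded 2 times the bound. The words rose, fell and changed are kept for calls against WT at q under 0.05 in the authors' deposited tables.

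Both mutated genes were checked first. CLF (AT2G23380, chromosome 2) had 0.264 FPKM in clf, against 10.4 FPKM in lhp1 and 8.37 FPKM in WT. Its loss in clf had q = 0.0520 in the authors' deposited table, just short of a call, and was past the bound against lhp1. LHP1 (AT5G17690, chromosome 5) had 13.1 FPKM in clf, was listed at 0 in lhp1 and had 12.1 FPKM in WT. The labels therefore matched the transcripts of the mutated genes, and each mutant expressed the other's gene near the WT level.

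Genes next to LHP1 stood out as well. AT5G17670, which encodes an alpha/beta-hydrolase, had 23.7 FPKM in clf, was listed at 0 in lhp1 and had 26.8 FPKM in WT. AT5G17680 was at 0.605 FPKM in clf, listed at 0 in lhp1 and at 0.451 FPKM in WT. On the other side AT5G17700 had 12.3 FPKM in clf, 4.88 FPKM in lhp1 and 8.80 FPKM in WT; it rose in clf and fell in lhp1 in the authors' deposited tables. The merged locus of AT5G17650 and AT5G17660, beside AT5G17670, had 35.9 FPKM in clf and 34.2 FPKM in lhp1. A value of exactly 0 can be a failed estimate, and why adjacent genes share it in lhp1 was not tested.

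Most of the transcriptome was alike in the mutants. The median log2 difference over the 18371 loci was 0.0012, and 89.4% of loci lay within 1.5-fold. At 2-fold or more, 288 loci (1.57%) stood higher in clf and 340 (1.85%) stood lower in clf, 628 in all (3.42%). Of 18246 loci with an error bound, 1293 (7.09%) were past it and higher in clf and 1276 (6.99%) were past it and lower in clf. Both conditions held at 230 loci higher in clf (1.26%) and 242 lower in clf (1.33%). At 4-fold or more there remained 41 loci higher and 48 lower in clf. By the same 2-fold measure pkl differed from clf at 5.76% of loci and from lhp1 at 6.8%.

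**Figure D1:**
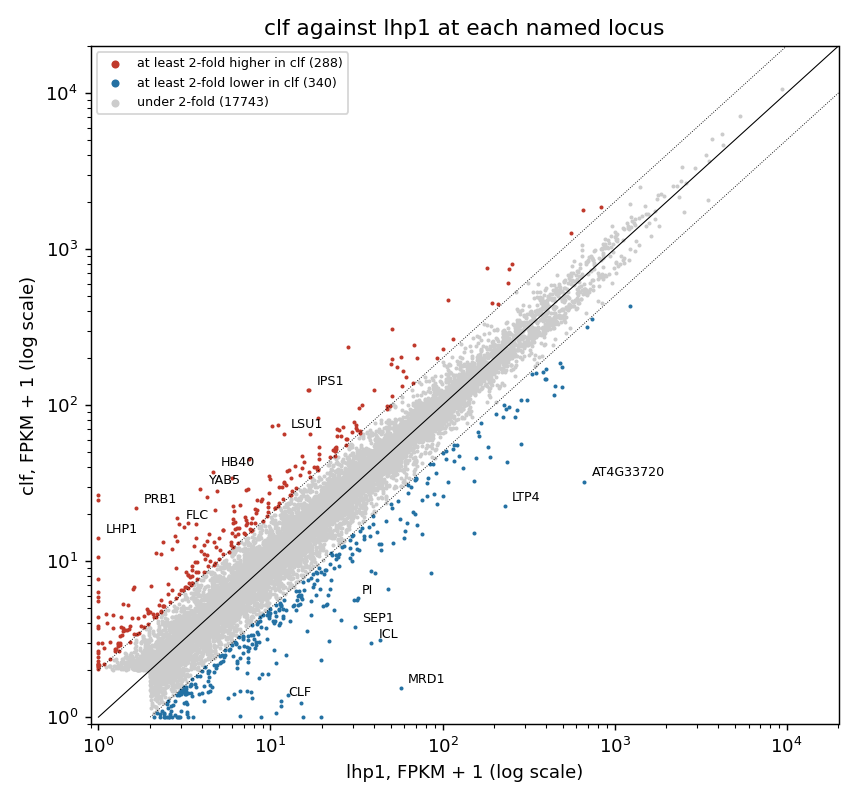
FPKM + 1 in clf (vertical, log scale) against FPKM + 1 in lhp1 (horizontal, log scale) at each of the 18371 named loci. The solid line marks equal values and the dotted lines 2-fold, with 288 loci above and 340 below; named genes such as HB40, FLC, LTP4 and SEP1 lie far outside the dotted lines.

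The loci that differed were placed against WT. Of the 288 loci higher in clf, WT was at or above both mutants at 163, between them at 93 and at or below both at 32. Of the 340 loci lower in clf, WT was at or below both mutants at 146, between them at 185 and at or above both at 9. The clf value was the closer one to WT at 229 of the 288 and at 287 of the 340. In the authors' deposited tables, 1355 of 18281 tested loci rose in clf (7.41%) and 969 fell (5.3%), against 2109 of 18320 that rose in lhp1 (11.5%) and 2002 that fell (10.9%). Among the 288 loci higher in clf, 196 fell and 8 rose in lhp1, while 43 rose and 85 fell in clf. Among the 340 lower in clf, 228 rose and 1 fell in lhp1, while 50 rose and 52 fell in clf. No call against WT stood in either of the authors' deposited tables for 68 of the 288 and 97 of the 340.

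Floral organ identity genes, mostly MADS-box transcription factors that specify sepals, petals, stamens and carpels, were on in both mutants but not to the same level. Of 16 members, all at 1 FPKM or more, 7 stood at least 2-fold lower in clf than in lhp1 and 1 stood at least 2-fold higher, against 1.85% and 1.57% of all loci. Of the 16, 14 rose in clf and 12 rose in lhp1 in the authors' deposited tables, and none fell. Among all tested loci 7.41% rose in clf and 11.5% rose in lhp1. Their median log2 difference was -0.545, against 0.0012 over all loci. In these whole-seedling samples, a different number of cells that express a gene and a different amount of RNA per cell cannot be told apart.

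The genes of petal and stamen identity were among those lower in clf. PI had 4.66 FPKM in clf, 29.6 FPKM in lhp1 and 0.479 FPKM in WT. AP3, its partner, had 7.62 FPKM in clf, 37.1 FPKM in lhp1 and 0.225 FPKM in WT. Both lay between WT and lhp1 in clf, and both rose in each of the authors' deposited tables. SEP1, a cofactor of the floral organ complexes, had 2.77 FPKM in clf, 30.0 FPKM in lhp1 and 0.522 FPKM in WT, a log2 difference of -3.04 with an error bound of 0.82. SEP2 had 1.34 FPKM in clf, 18.7 FPKM in lhp1 and 0.179 FPKM in WT, but was called in neither of the authors' deposited tables. AP1, which specifies floral meristems and sepals, had 4.15 FPKM in clf, 19.3 FPKM in lhp1 and 0.188 FPKM in WT. CAL, its close relative, and SHP1, a carpel gene, were also at least 2-fold lower in clf, at 1.38 against 5.69 FPKM and at 10.03 against 28.7 FPKM.

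AG, the gene of stamen and carpel identity and a classic CLF target, ran the other way. It had 31.1 FPKM in clf, 11.0 FPKM in lhp1 and 0.594 FPKM in WT, a log2 difference of 1.43 with an error bound of 0.44. SEP4 was past the bound in the same direction, at 11.0 FPKM in clf, 6 FPKM in lhp1 and 6.58 FPKM in WT. SEP3 was the most abundant of these genes, at 166 FPKM in clf, 232 FPKM in lhp1 and 9.93 FPKM in WT. SHP2 was at 16.9 FPKM in clf and 15.9 FPKM in lhp1 with 0.637 FPKM in WT, so the mutants were within the bound of each other at this near relative of SHP1. AP2, LFY, STK, AGL6 and FUL were within 2-fold and within the bound. Anther and pollen markers summed to 0.0319 FPKM in clf, 0.0183 FPKM in lhp1 and 0.0168 FPKM in WT over 4 measured genes.

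The listed flowering repressors, which do not include TFL1, stood higher in clf, mostly by less than 2-fold. FLC, the MADS-box repressor silenced by vernalization, had 16.3 FPKM in clf, 1.94 FPKM in lhp1 and 3.77 FPKM in WT. It rose in clf and fell in lhp1 in the authors' deposited tables, and the log2 difference was 2.55 with an error bound of 0.38. MAF5, an FLC relative, had 7.46 FPKM in clf, 2.77 FPKM in lhp1 and 8.52 FPKM in WT. Of 13 repressors at 1 FPKM or more, these 2 were at least 2-fold higher in clf, 0 were at least 2-fold lower, and 8 were past the bound, all higher in clf. Over all loci 1.57% were at 2-fold and 7.09% past the bound in that direction. TEM1, TEM2, TOE1 and SVP, which act on FT and its targets, fell in both mutants and were lower in lhp1; TEM1 had 63.7 FPKM in clf, 32.6 FPKM in lhp1 and 108 FPKM in WT.

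Genes listed for flowering signals and promotion, a list that also holds the repressors TFL1 and BFT, differed in both directions. FT, the mobile flowering signal, had 37.1 FPKM in clf, 56.7 FPKM in lhp1 and 6.17 FPKM in WT, and was past the bound though under 2-fold. FD, the partner of FT at the shoot apex, had 5.48 FPKM in clf, 2.09 FPKM in lhp1 and 9.15 FPKM in WT, and AGL19 had 3.77 FPKM in clf, 1.32 FPKM in lhp1 and 1.90 FPKM in WT. These were the 2 of 16 members at least 2-fold higher in clf, and 0 were at least 2-fold lower. The same shares of all loci were 1.57% and 1.85%. TFL1 was past the bound and lower in clf, like FT. It had 7.18 FPKM in clf, 14.4 FPKM in lhp1 and 2.28 FPKM in WT, and rose in both mutants. SOC1, SPL3, SPL4 and SPL9 were within the bound.

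**Figure D2:**
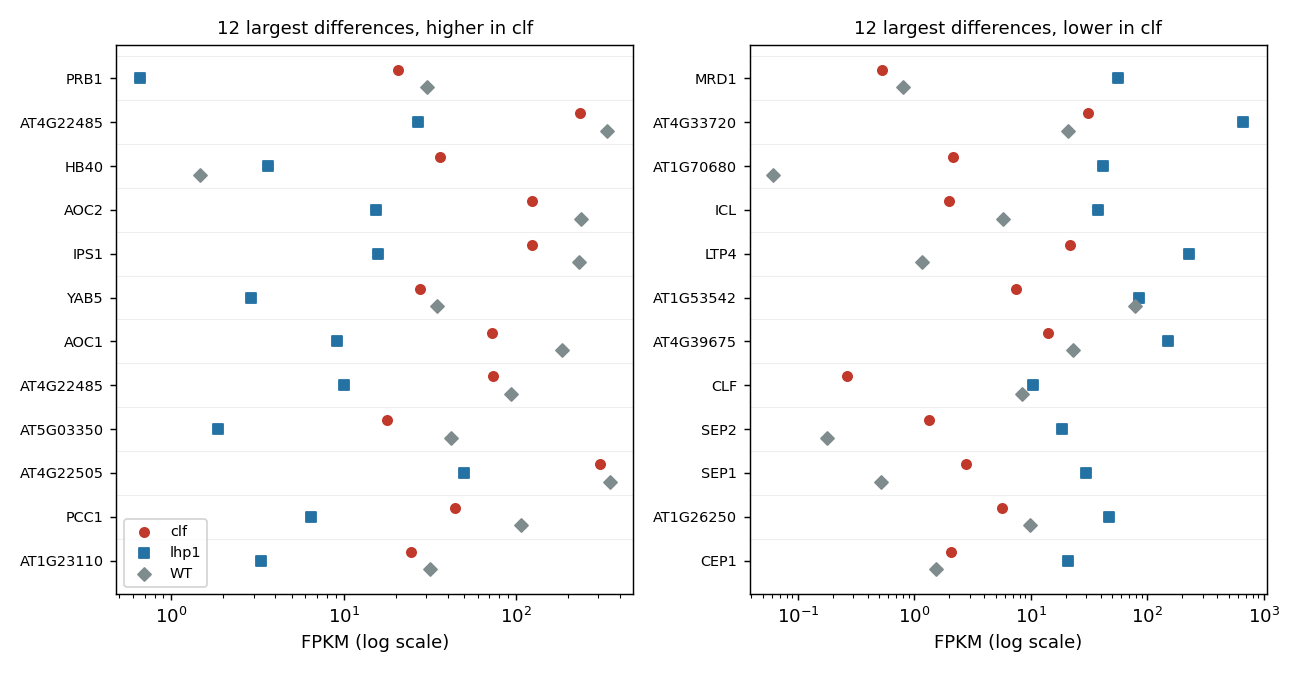
FPKM (log scale) in clf (circles), lhp1 (squares) and WT (diamonds) for the 12 largest differences in each direction among single-gene nuclear loci past the error bound; each point is the authors' 1 value per genotype, and AT4G22485 appears for each of its loci. In the left panel lhp1 lies below clf, with WT near or above clf except at HB40; in the right panel lhp1 lies above clf, with WT nearer clf except at CLF and AT1G53542.

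The largest differences towards clf, taken by the naming rule, covered defence, jasmonate, phosphate and development. PRB1, a basic pathogenesis-related protein, had 20.8 FPKM in clf, 0.659 FPKM in lhp1 and 30.2 FPKM in WT, the largest ratio among the 12. HB40, a homeobox gene of axillary bud dormancy, had 36.4 FPKM in clf, 3.64 FPKM in lhp1 and 1.46 FPKM in WT. It rose in both mutants, whereas most of the 12 were lower in lhp1 than in WT. AT5G03350, which encodes a legume-type lectin, had 17.8 FPKM in clf, 1.87 FPKM in lhp1 and 41.8 FPKM in WT. PCC1, a small pathogen- and clock-controlled protein, had 44.1 FPKM in clf, 6.47 FPKM in lhp1 and 107 FPKM in WT.

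Phosphate starvation genes recur among these loci. Plants short of phosphate switch on transporters, phosphatases and enzymes that replace phospholipids by galactolipids and sulfolipids, largely through the transcription factor PHR1. The list of 24 genes of this response, regulators such as PHR1 and PHO2 included, was chosen after values had been seen. The reason was that IPS1 was among the 12 largest differences, and the counts of the list are a description. Of 19 members at 1 FPKM or more, 8 were at least 2-fold higher in clf and 0 were lower by that much. Past the bound, 14 were higher and 2 lower. Over all loci these shares were 1.57% and 1.85% at 2-fold and 7.09% and 6.99% past the bound. Of the 8 members at 2-fold, PHT1;8 was within the bound, at 2.39 FPKM in clf and 0.667 FPKM in lhp1. IPS1, a noncoding RNA that captures microRNA399, had 123 FPKM in clf, 15.8 FPKM in lhp1 and 231 FPKM in WT. MGDC, a galactolipid synthase, had 32.9 FPKM in clf, 4.94 FPKM in lhp1 and 68.9 FPKM in WT. PAP14, a purple acid phosphatase, had 10.2 FPKM in clf, 1.15 FPKM in lhp1 and 21.0 FPKM in WT. PHT1;2, a phosphate transporter, had 10.9 FPKM in clf, 1.69 FPKM in lhp1 and 21.4 FPKM in WT. Each of these 4 had its order as WT, then clf, then lhp1 from high to low. The 2 members past the bound and lower in clf were PHO1 and PHT1;1. PHO1 had 47.7 FPKM in clf, 74.3 FPKM in lhp1 and 43.8 FPKM in WT. PHT1;1, close to PHT1;2 on chromosome 5, had 90.4 FPKM in clf, 127 FPKM in lhp1 and 129 FPKM in WT. Reads shared between PHT1;1 and PHT1;2 may be divided either way. Of the members, 8 fell in clf and 12 fell in lhp1 in the authors' deposited tables, while 1, PHO1, rose in lhp1; over all loci 5.3% fell in clf and 10.9% fell in lhp1. PHR1 itself was at 36.5 FPKM in clf, 34.7 FPKM in lhp1 and 34.3 FPKM in WT.

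PHR1 is known to bind the P1BS motif, GNATATNC, a palindrome that reads alike on both strands. The 250 bases before the annotated start held it at 34 of 270 loci at least 2-fold higher in clf (12.6%), at 21 of 319 at least 2-fold lower (6.58%) and at 916 of all 16236 loci with a promoter of this length (5.64%). The AT content of the windows had medians of 69% in the first set, 70% in the second and 69.2% over all. Other motifs searched on both strands were near their shares over all loci. The telobox AAACCCTA, known from Polycomb response elements, was at 3.7% of loci higher in clf, 2.82% of loci lower and 3.68% of all. GAGAGA was at 45 of 270 loci higher in clf, 56 of 319 loci lower and 3035 of all 16236. In the same order CACGTG was at 7.78%, 5.96% and 7.29%, and GAGAC was at 26.7%, 22.9% and 24.2%; GAGAGA and GAGAC can overlap each other. The motifs were chosen with the values known, and no test was made of these shares. Of 21 phosphate list members with a promoter window, 4 held P1BS: 3 of the 8 members at least 2-fold higher in clf, and PHT1;7, which was under 1 FPKM in both mutants and not at 2-fold. The windows of those 3 are shown with each match in capitals, together with that of IPS1, which held none in this window.
PAP14: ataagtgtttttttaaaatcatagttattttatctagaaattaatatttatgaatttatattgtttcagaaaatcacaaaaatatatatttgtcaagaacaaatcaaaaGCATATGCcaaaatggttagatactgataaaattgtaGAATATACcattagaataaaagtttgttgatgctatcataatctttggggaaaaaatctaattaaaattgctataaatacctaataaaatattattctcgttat
PHT1;2: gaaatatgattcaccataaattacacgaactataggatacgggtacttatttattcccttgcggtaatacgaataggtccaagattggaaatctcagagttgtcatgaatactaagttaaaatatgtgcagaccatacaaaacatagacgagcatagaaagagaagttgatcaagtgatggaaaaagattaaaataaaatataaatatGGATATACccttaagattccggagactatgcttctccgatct
MGD2: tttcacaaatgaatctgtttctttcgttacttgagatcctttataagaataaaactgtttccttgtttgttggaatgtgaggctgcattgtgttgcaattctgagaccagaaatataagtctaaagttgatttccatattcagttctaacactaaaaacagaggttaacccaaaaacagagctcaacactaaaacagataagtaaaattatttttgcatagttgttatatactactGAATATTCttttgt
IPS1: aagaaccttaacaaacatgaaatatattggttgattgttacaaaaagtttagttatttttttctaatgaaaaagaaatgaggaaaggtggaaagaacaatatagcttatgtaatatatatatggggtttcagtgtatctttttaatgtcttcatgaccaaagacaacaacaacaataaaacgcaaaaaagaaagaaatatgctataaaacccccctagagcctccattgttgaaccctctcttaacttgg

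The sequences run 5′ to 3′ on the gene's strand and come from RefSeq TAIR10.1: PAP14 at chr2:19266457-19266706 on the minus strand, PHT1;2 at chr5:17415448-17415697, MGD2 at chr5:6896213-6896462 and IPS1 at chr3:3050739-3050988 on the plus strand. The IPS1 window lay inside the measured IPS1 locus, chr3:3050735-3052887, so bases before that locus were not searched. PAP14 held 2 matches, with their first bases at positions -141 and -104 from the start, PHT1;2 held 1 at -42 and MGD2 held 1 at -14. MGD2, another galactolipid synthase, had 17.7 FPKM in clf, 5.03 FPKM in lhp1 and 24.6 FPKM in WT. Outside the list, P1BS stood before PLDP2, a phospholipase D of the same response, at 16.5 FPKM in clf, 5.03 FPKM in lhp1 and 27.9 FPKM in WT. It also stood before PS2, a phosphatase, at 71.6 FPKM in clf, 25.3 FPKM in lhp1 and 144 FPKM in WT. A match of these letters is a description and not a binding site.

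**Figure D3:**
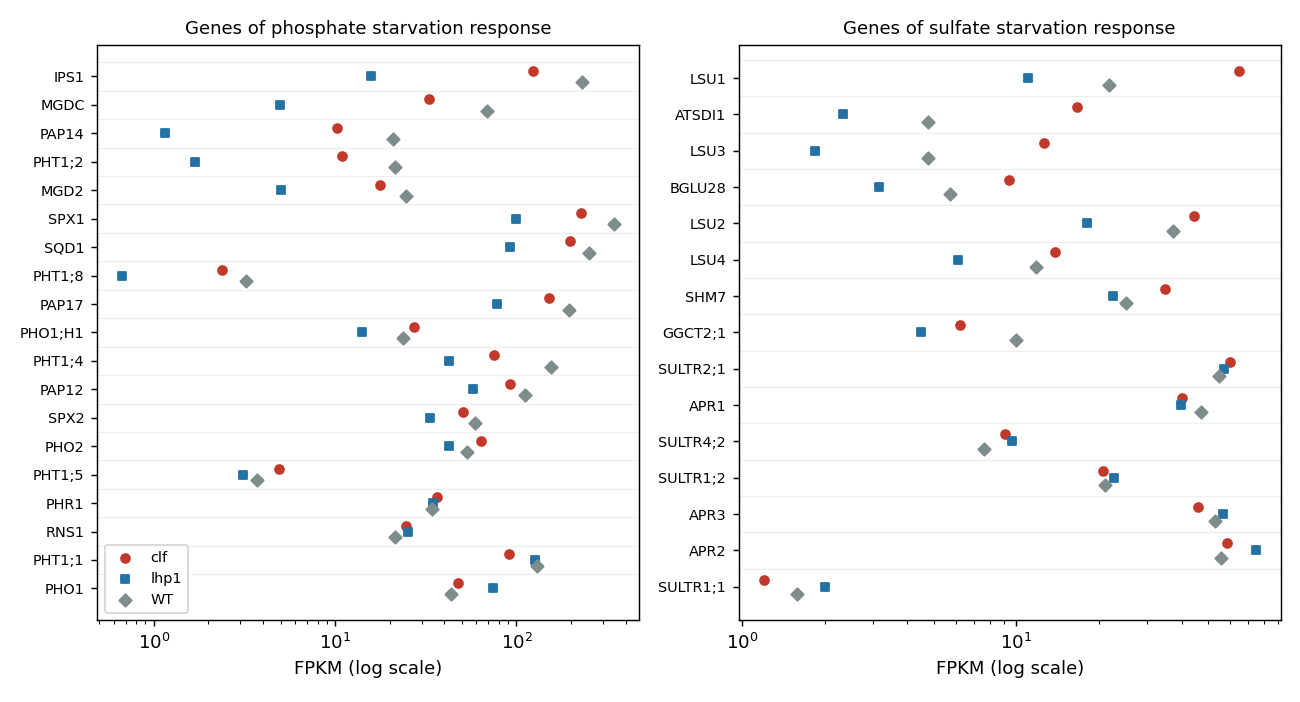
FPKM (log scale) in clf (circles), lhp1 (squares) and WT (diamonds) for members of the phosphate (left) and sulfate (right) starvation lists at 1 FPKM or more, ordered by the log2 difference of clf over lhp1 from largest at the top. IPS1 lies at 123 FPKM in clf and 15.8 FPKM in lhp1 with WT above both, whereas at LSU1 clf (64.5 FPKM) lies above WT (21.8 FPKM) and lhp1 (11.0 FPKM) below it.

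Sulfate starvation genes, likewise listed after LSU1 and ATSDI1 had been seen, included members on either side of WT in the mutants. LSU1, a small protein induced by low sulfur, had 64.5 FPKM in clf, 11.0 FPKM in lhp1 and 21.8 FPKM in WT. ATSDI1, a repressor of glucosinolate synthesis under sulfur limitation, had 16.6 FPKM in clf, 2.32 FPKM in lhp1 and 4.78 FPKM in WT. Both rose in clf and fell in lhp1 in the authors' deposited tables. LSU3, next to LSU1 on chromosome 3, had 12.5 FPKM in clf, 1.85 FPKM in lhp1 and 4.74 FPKM in WT, and BGLU28, a beta-glucosidase, had 9.37 FPKM in clf, 3.15 FPKM in lhp1 and 5.70 FPKM in WT. With LSU2 and LSU4 these made 6 of 15 members at least 2-fold higher in clf, and 0 were at least 2-fold lower. Past the bound were 7 members higher in clf and 2 lower. Over all loci these shares were 1.57% and 1.85% at 2-fold and 7.09% and 6.99% past the bound. The 2 lower ones were APR2, a reductase, at 58.3 FPKM in clf and 74.5 FPKM in lhp1, and SULTR1;1, a transporter, at 1.198 FPKM in clf and 2.01 FPKM in lhp1. Their relatives were within the bound: SULTR1;2 was at 20.7 FPKM in clf and 22.6 FPKM in lhp1, and APR1 at 40.0 FPKM in clf and 39.9 FPKM in lhp1.

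Salicylic acid and defence genes were the next group with several members at 2-fold. Of 17, 3 stood at least 2-fold higher in clf, 0 lower, 9 were past the bound higher in clf and 1 was past it lower, against 1.57%, 1.85%, 7.09% and 6.99% of all loci. PR5, a thaumatin-like antimicrobial protein, had 46.4 FPKM in clf, 14.3 FPKM in lhp1 and 38.4 FPKM in WT. SARD1, a transcription factor that drives salicylic acid synthesis, had 7.16 FPKM in clf, 2.30 FPKM in lhp1 and 7.79 FPKM in WT. WRKY70, a regulator between the salicylic acid and jasmonate pathways, had 52.7 FPKM in clf, 23.0 FPKM in lhp1 and 66.8 FPKM in WT. All 3 fell in lhp1 and had no call in clf in the authors' deposited tables. ICS1, the synthesis enzyme, was at 4.28 FPKM in clf and 4.38 FPKM in lhp1. PAD3, which makes the antimicrobial camalexin, was the member past the bound and lower in clf, at 6.98 FPKM in clf, 14.7 FPKM in lhp1 and 22.2 FPKM in WT.

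Among jasmonate genes the largest differences were at 3 synthesis genes. AOC2 and AOC1, adjacent genes of allene oxide cyclase, had 123 and 72.8 FPKM in clf, 15.5 and 9.17 FPKM in lhp1 and 237 and 185 FPKM in WT. They are close copies, and the division of reads shared between them is not known here. AOS, the enzyme one step before, had 34.6 FPKM in clf, 13.9 FPKM in lhp1 and 38.6 FPKM in WT. AOC3 ran the other way, at 17.3 FPKM in clf, 28.4 FPKM in lhp1 and 15.1 FPKM in WT. The storage protein gene VSP2, a common jasmonate readout, was at 146 FPKM in clf, 148 FPKM in lhp1 and 22.1 FPKM in WT, and rose in both mutants. VSP1, its close copy, also rose in both and was past the bound, at 174 FPKM in clf, 106 FPKM in lhp1 and 11.6 FPKM in WT. Of 16 members, 3 were at least 2-fold higher in clf and 0 were at least 2-fold lower, against 1.57% and 1.85% of all loci.

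Among leaf polarity genes, YAB5, a YABBY transcription factor of the lower leaf side, had 27.8 FPKM in clf, 2.92 FPKM in lhp1 and 34.7 FPKM in WT. It fell in lhp1 and had no call in clf, and the log2 difference was 2.88 with an error bound of 0.29. The other YABBY genes were higher in clf by less: FIL at 19.6 against 11.0 FPKM in lhp1, YAB2 at 20.3 against 11.9 FPKM and YAB3 at 32.9 against 22.7 FPKM. In all, 7 of 13 members were past the bound, each higher in clf, but YAB5 was the 1 member at 2-fold. The shares of all loci in that direction were 7.09% past the bound and 1.57% at 2-fold. The upper-side genes PHB, PHV and REV were within the bound.

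Genes of bud dormancy other than HB40 were less far apart. BRC1, the repressor of branching, had 5.62 FPKM in clf, 3.70 FPKM in lhp1 and 0.127 FPKM in WT, with the mutants within the bound of each other. HB21, a target of BRC1 like HB40, had 19.7 FPKM in clf, 8.70 FPKM in lhp1 and 0.704 FPKM in WT, at least 2-fold higher in clf but within the bound. HB53, the third gene of that set, was low at 1.35 FPKM in clf, 2.28 FPKM in lhp1 and 1.26 FPKM in WT.

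Early stomatal genes were lower in lhp1. SPCH, which starts the lineage, had 6.03 FPKM in clf, 2.46 FPKM in lhp1 and 6.05 FPKM in WT. EPF2, a peptide that limits the number of its cells, had 7.73 FPKM in clf, 2.50 FPKM in lhp1 and 7.91 FPKM in WT. BASL was past the bound in the same direction, whereas MUTE and FAMA, of the later steps, were within it. Of 8 members, 2 were at least 2-fold higher in clf and 0 lower, against 1.57% and 1.85% of all loci. In clf, SPCH and EPF2 were close to WT and not called.

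Root genes and most cytokinin genes had lower values in clf than in lhp1. All 12 root genes at 1 FPKM or more had log2 differences below 0, with 0 at 2-fold and 4 past the bound. In that direction 1.85% of all loci were at 2-fold and 6.99% past the bound. By the authors' calls against WT, 5 of the 12 fell and 0 rose in clf, while 1 (PYK10) rose and 1 fell in lhp1. Over all loci 5.3% fell in clf, 11.5% rose in lhp1 and 10.9% fell in lhp1. PYK10, a beta-glucosidase of root ER bodies, had 2060 FPKM in clf, 3480 FPKM in lhp1 and 1920 FPKM in WT, and CASP1, a protein of the endodermal barrier, had 31.1 FPKM in clf, 44.6 FPKM in lhp1 and 47.7 FPKM in WT. The 6 fixed root markers summed to 2210 FPKM in clf, 3660 FPKM in lhp1 and 2130 FPKM in WT, most of it PYK10; SHR and SCR, which pattern the root, were close in the mutants, with SHR at 10.6 FPKM in each. Leaf photosynthesis markers summed to 14500 FPKM in clf, 12600 FPKM in lhp1 and 17800 FPKM in WT. The part of tissue proportions in the results above, phosphate genes included, was not tested. Of 12 cytokinin genes, 1 was at least 2-fold lower in clf: CKX3, a cytokinin-degrading oxidase, at 2.03 FPKM in clf, 7.20 FPKM in lhp1 and 0.448 FPKM in WT. IPT3, a cytokinin synthesis enzyme, and the response regulator ARR8 were past the bound in the same direction. With CKX3 these made 3 of the 12 past the bound, against 6.99% of all loci. At least 2-fold lower in clf were 1.85% of all loci.

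The 12 largest differences towards lhp1 included CLF itself, SEP1 and SEP2. AT4G33720, which encodes a CAP-domain protein of the pathogenesis-related 1 type, had 31.3 FPKM in clf, 665 FPKM in lhp1 and 20.8 FPKM in WT, a log2 difference of -4.37 with an error bound of 0.23. It rose in both of the authors' deposited tables. ICL, isocitrate lyase of the glyoxylate cycle, had 1.97 FPKM in clf, 37.5 FPKM in lhp1 and 5.76 FPKM in WT, and fell in clf while it rose in lhp1. Its partner enzyme MLS did not follow, at 0.841 FPKM in clf, 0.787 FPKM in lhp1 and 1.15 FPKM in WT. LTP4, a lipid transfer protein, had 21.6 FPKM in clf, 228 FPKM in lhp1 and 1.17 FPKM in WT. LTP3, its neighbour on chromosome 5, had 31.8 FPKM in clf, 151 FPKM in lhp1 and 5.004 FPKM in WT, and reads shared between these close copies may be divided either way. The other lipid transfer genes measured, LTP1, LTP2, LTP5 and LTP6, were within 2-fold. So 2 of 6 were at least 2-fold lower in clf, as was 1 of 5 glyoxylate and gluconeogenesis genes. The share of all loci was 1.85%.

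CEP1, a cysteine endopeptidase of dying cells, had 2.08 FPKM in clf, 20.8 FPKM in lhp1 and 1.54 FPKM in WT. AT1G70680, a caleosin, had 2.14 FPKM in clf, 42.0 FPKM in lhp1 and 0.0616 FPKM in WT without a call in either of the authors' deposited tables. The same holds for MRD1, the largest difference of all 24, at 0.530 FPKM in clf, 56.1 FPKM in lhp1 and 0.805 FPKM in WT, where the error bound of 2.3 on the log2 scale was wide. The 4 seed markers summed to 0.357 FPKM in clf, 0.0200 FPKM in lhp1 and 0.590 FPKM in WT. Of 5 embryo and seed genes at 1 FPKM or more, 0 were at 2-fold. Past the bound, 3 were higher in clf and 1 was lower, against 7.09% and 6.99% of all loci. ABI5, a factor of abscisic acid response in seeds, rose in both mutants, at 12.2 FPKM in clf, 6.17 FPKM in lhp1 and 2.86 FPKM in WT.

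Genes of secondary metabolism differed in both directions, with 3 of 13 glucosinolate genes past the bound higher in clf and 3 past it lower. The same shares of all loci were 7.09% and 6.99%. MAM3, a chain-elongation enzyme of aliphatic glucosinolates, had 25.2 FPKM in clf, 80.4 FPKM in lhp1 and 60.0 FPKM in WT; it fell in clf and rose in lhp1. CYP79F1, another enzyme of the aliphatic branch, had 46.1 FPKM in clf, 30.9 FPKM in lhp1 and 17.1 FPKM in WT. Its neighbour CYP79F2 ran the other way, at 16.9 FPKM in clf, 28.9 FPKM in lhp1 and 22.6 FPKM in WT. Reads shared between CYP79F1 and CYP79F2 may be divided either way. MYB51, a regulator of the indolic branch, had 33.2 FPKM in clf, 16.4 FPKM in lhp1 and 32.4 FPKM in WT. Among flavonoid genes CHS (chalcone synthase), of the first step, was past the bound and lower in clf, at 176 FPKM in clf, 345 FPKM in lhp1 and 239 FPKM in WT. DFR, of a later anthocyanin step, stood higher in clf, at 3.45 FPKM in clf, 0.844 FPKM in lhp1 and 0.596 FPKM in WT. The anthocyanin regulator PAP2, a MYB factor, had 5.78 FPKM in clf, 0.618 FPKM in lhp1 and 10.2 FPKM in WT. Of 11 members, 2 were at least 2-fold higher in clf (DFR and PAP2) and 5 were past the bound lower in clf. For all loci these shares were 1.57% and 6.99%.

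**Figure D4:**
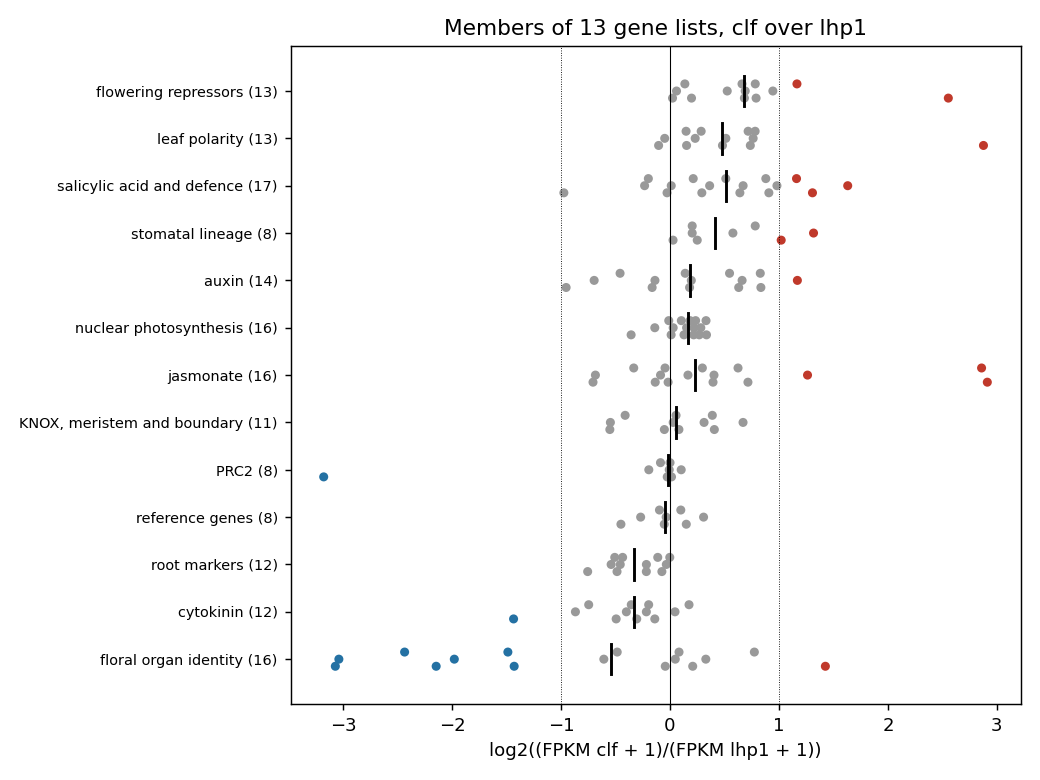
Log2((FPKM clf + 1)/(FPKM lhp1 + 1)) of each member at 1 FPKM or more in 13 of the 29 gene lists, with the number of members in brackets; black bars are medians over these members, dotted lines mark 2-fold, red points are at least 2-fold higher in clf and blue points at least 2-fold lower. Floral organ identity genes spread furthest to the left, all 13 flowering repressors lie right of 0, and all 12 root markers lie left of it or on it.

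Several groups did not separate the mutants at 2-fold. Polycomb repressive complex 2 subunits other than CLF were not past the bound at 1 FPKM or more, with SWN at 18.3 FPKM in clf and 21.1 FPKM in lhp1. EMF1, which acts with Polycomb complexes, was past the bound at 9.63 FPKM in clf and 12.9 FPKM in lhp1. Among 11 KNOX, meristem and boundary genes 0 were at 2-fold; STM was at 16.3 FPKM in clf, 15.3 FPKM in lhp1 and 7.44 FPKM in WT, and KNAT1 was at 16.6 FPKM in clf, 16.3 FPKM in lhp1 and 8.94 FPKM in WT, and both rose in each mutant. None of 16 gibberellin genes, 16 nuclear photosynthesis genes, 9 clock genes, 7 cell cycle genes and 8 reference genes was at 2-fold. Of 14 auxin genes, 1 was: PIN4, an auxin efflux carrier, at 39.2 FPKM in clf, 16.9 FPKM in lhp1 and 56.5 FPKM in WT. The share of all loci at 2-fold was 3.42%. Past the bound, 5 auxin genes were higher in clf and 2 lower, and 2 gibberellin genes were higher and 3 lower. Over all loci these shares were 7.09% and 6.99%. The boundary list and the clock list each held 1 gene past the bound higher in clf, and the reference genes held 1 lower. Among photosynthesis and cell cycle genes 0 were past it. The absence of a 2-fold difference does not show that these genes are alike in the mutants.

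Differing loci were often neighbours. Of 288 loci higher in clf, 41 (14.2%) had an adjacent compared locus that was also at least 2-fold higher, against 3.07% of all 18371 loci with such a neighbour. Of 340 lower in clf, 41 (12.1%) had a neighbour lower, against 3.64% of all. Several loci of the same gene also counted as neighbours of each other. The longest run held 8 loci at chr4:11844160-11866435 (TAIR10), all higher in clf, which encode small proteins of the lipid-transfer and seed storage albumin type. AT4G22485 and AT4G22505 each entered this run with more than 1 locus. AT4G22520 and the locus of AT4G22505 at 8.05 FPKM in clf and 1.84 FPKM in lhp1 were within the bound. AT4G22490 had 607 FPKM in clf, 241 FPKM in lhp1 and 522 FPKM in WT, and a locus of AT4G22505 had 307 FPKM in clf, 49.7 FPKM in lhp1 and 350 FPKM in WT. At the edge of the run AT4G22470 had the opposite order, at 14.0 FPKM in clf, 74.8 FPKM in lhp1 and 10.6 FPKM in WT. These genes are close copies, and their single values depend on how shared reads were divided.

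**Figure D5:**
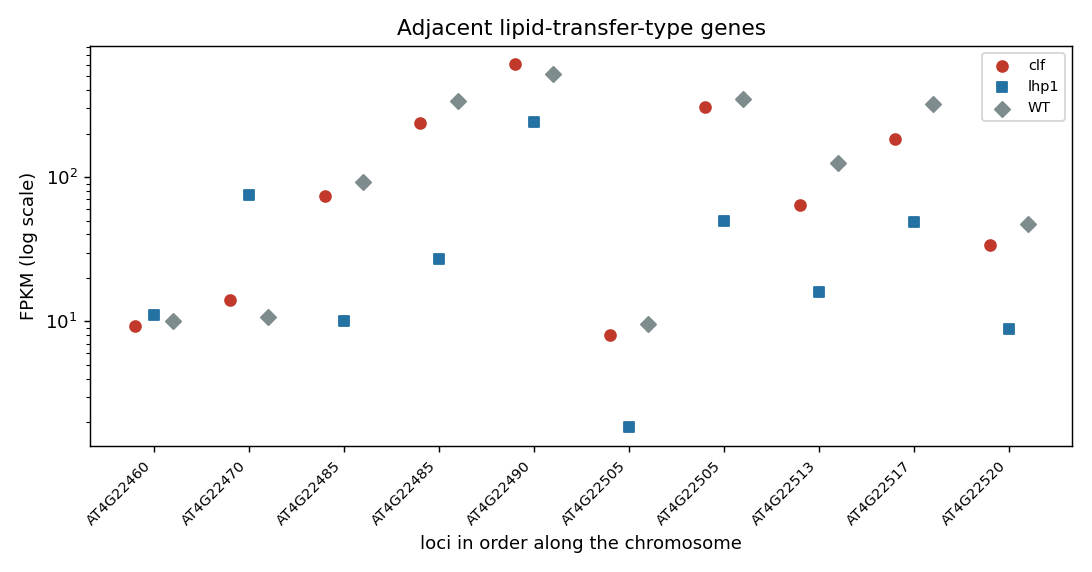
FPKM (log scale) in clf (circles), lhp1 (squares) and WT (diamonds) at consecutive loci of the lipid-transfer type on chromosome 4, in their order along the chromosome; each point is the authors' 1 value per genotype, and genes named again have several loci. From the first AT4G22485 onward lhp1 lies below clf and WT, and at AT4G22470 it lies above both.

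Shorter runs of 3 loci were also found. EARLI1, AT4G12490 and AT4G12500 on chromosome 4, again of the lipid-transfer type, were lower in clf, with AT4G12490 at 42.4 FPKM in clf, 237 FPKM in lhp1 and 259 FPKM in WT. AT1G52050, AT1G52060 and AT1G52070, and LBD40, AT1G67105 and CYP735A2, were lower in clf as well, while AT5G52740, AT5G52750 and AT5G52760 were higher in clf. AT5G52740 entered its run only through a value close to the 1 FPKM limit. It was at 1.03 FPKM in clf and listed at 0 in lhp1, with no error bound and no call against WT. By chromosome the share at 2-fold ranged between 3.16% on chromosome 5 and 3.72% on chromosome 2.

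The share of loci at 2-fold depended on level. It was 7.25% of loci whose mean of clf and lhp1 was under 2 FPKM, 4.94% at 2 to 5 FPKM, 3.2% at 5 to 20 FPKM, 2.12% at 20 to 100 FPKM and 3.12% above 100 FPKM. In the lowest class the filter left out loci under 1 FPKM in both mutants. Such loci cannot reach 2-fold with the added 1, so the share in that class rests partly on the filter. The median error bound was 0.578 in the lowest class and 0.18 in the highest. At 17 of the loci lower in clf the gene was listed at 0 in clf, and at 22 of those higher in clf it was listed at 0 in lhp1.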

How the data were processed

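RNA was sequenced from whole seedlings in 12 libraries, 3 for each of 4 genotypes by their titles; the 6 clf and lhp1 libraries are compared here. Per the submitters' processing notes, TopHat, Cufflinks 2.1.1 and Cuffdiff 2.1.1 were used with the genome build TAIR10. The authors deposited 1 table per mutant against WT with 1 FPKM value per genotype and locus. The deposited test statistic is a score, and the deposited p-value and q-value belong to the same comparison with WT; WT FPKM differed between the clf and lhp1 tables at 0 loci. Single-library values were not used, so values carry no SD, and the depth behind them is unknown. Strand setting and library normalization: not given in the sources used here.

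Tables were joined by locus. The log2 difference used a pseudocount of 1 FPKM. The implied standard error was the absolute log2 fold change against WT divided by 1.74 times the absolute statistic. This 1.74 was the median ratio of the normal quantile of p to the statistic in each table. The error step was run on simulated data built with the same ratio. That run therefore cannot show whether the ratio holds at each locus of the deposited tables. The clf and lhp1 tables share the WT libraries, so their calls against WT are not independent and are only set side by side. Where several loci carried 1 gene, the one of highest mean was taken for lists. Of 401 symbols in 29 lists, 364 had a locus, and 305 reached 1 FPKM in either mutant. Symbols came from the RefSeq gene table (TAIR10.1), which matched 20520 of 20593 identifiers. Loci with several genes (1991) stayed in the counts. Members and lists were chosen with earlier results of these data known, and the lists for phosphate, sulfate, lipid transfer, glyoxylate and senescence genes after the direct values had been seen.

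Genes were named by rule: the mutated genes; the 12 highest and 12 lowest log2 differences among single-gene nuclear loci with test status OK in both tables and past the bound; up to 5 members per list; up to 8 loci with opposite calls; and neighbours within 3 loci that differ at least 4-fold the same way. Other genes named in the text were chosen after their values were seen. Alternatives were other pseudocounts, filters, rescalings, error multiples and single-gene loci. Python 3.11.15, pandas 2.3.3, numpy 2.4.6, scipy 1.17.1 and matplotlib 3.10.9 were used.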

Additional observations from a re-analysis of the deposited data

Results flagged for a closer look

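A locus without a gene name at chr5:14588689-14588838, 150 bases long, had 75606.5 FPKM in clf and was listed at 0 in lhp1, WT and pkl. Whether this value is a failed estimate was not tested. It lies outside the named loci compared, and it alone raised the clf FPKM sum to 992382, against 916776 without it; the sum was 911735 in lhp1 and 961279 in WT.

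At 74 single-gene nuclear loci the authors' deposited tables called opposite changes against WT in clf and lhp1, 27 higher in clf and lower in lhp1 and 47 the other way; each mutant gives 1 value, and the difference between them was not tested. Of the 8 with the largest direct difference, 3 rose in clf and fell in lhp1: the log2 difference of clf over lhp1 was 2.55 at FLC, 2.45 at LSU1 and 2.41 at ATSDI1. The other 5 of the 8 fell in clf and rose in lhp1. Their log2 difference was -3.7 at ICL and -2.85 at AT1G26250, a proline-rich extensin-like gene at 5.63 FPKM in clf, 46.9 FPKM in lhp1 and 9.81 FPKM in WT. It was -2.5 at AT4G12500, -2.26 at the peroxidase gene AT5G39580 (7.42 FPKM in clf, 39.2 FPKM in lhp1, 19.1 FPKM in WT) and -2.19 at the lectin gene AT5G35940 (2.55 FPKM in clf, 15.3 FPKM in lhp1, 9.47 FPKM in WT). Opposite calls also stood at other genes named here, with log2 differences of 1.75 at ASN1, 1.32 at BGLU28 and 1.17 at AT5G17700, which rose in clf and fell in lhp1. They were -1.63 at MAM3, -0.963 at CHS and -0.739 at CYP79F2, a glucosinolate gene at 16.9 FPKM in clf, 28.9 FPKM in lhp1 and 22.6 FPKM in WT, which fell in clf and rose in lhp1. The value of CYP79F2 depends on how reads shared with its neighbour CYP79F1 were divided.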

How the results depend on the processing

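The counts of 288 loci higher and 340 lower in clf became 463 and 613 with a pseudocount of 0.1 FPKM and 118 and 132 with 5 FPKM. At a 4-fold threshold, chosen after seeing the data, they were 41 and 48. The counts stayed within 1.5 times of 288 and 340 at 5 FPKM or more, at single-gene loci and, also chosen after seeing the data, at loci with status OK in both tables. Leaving out the filter could not change them. With a pseudocount of 1 FPKM, a 2-fold difference needs at least 1 FPKM in either mutant. Both rescalings of lhp1 also left them within 1.5 times, but the factors of 1.002 and 1.004 were too small to test the counts. Past the error bound, 1293 higher and 1276 lower became 612 and 507 at 3 times the bound, and 465 and 678 with the error taken from the p-value itself, which leaves out loci at the smallest p of 5e-05 by its construction. Of 87 list medians under alternatives, 86 moved by less than the members' median error bound and 1 did not: embryo and seed genes, at 0.595 over members with 1 FPKM or more against 0.0523 over all measured members. Of 330 values of the 165 named genes under alternatives, 312 moved by less than their bound and 18 moved by more (or had no bound). These alternatives could not test the sign of a difference. Another pseudocount cannot change it, and the rescaling factor was only 1.002. No paired analysis was possible because the tables hold 1 value per genotype; for the same reason leaving out single libraries was not run. Below 2 FPKM the median bound of 0.578 limits what can be told apart.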

Other observations

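Senescence genes, listed after values had been seen, went both ways. SAG29, a sugar transporter gene induced in ageing leaves, had 0.898 FPKM in clf, 8.65 FPKM in lhp1 and 0.862 FPKM in WT, and CEP1 was lower in clf as well. ORE1, a NAC factor that promotes leaf ageing, had 27.3 FPKM in clf, 12.3 FPKM in lhp1 and 41.1 FPKM in WT. SAG12, a cysteine protease and the usual marker of leaf senescence, had 8.77 FPKM in clf and 4.51 FPKM in lhp1 and was listed at 0 in WT. Of 6 members, 1 was at least 2-fold higher and 2 were at least 2-fold lower in clf, against 1.57% and 1.85% of all loci.

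Further single genes differed as well. ASN1, an asparagine synthetase induced in darkness, had 32.4 FPKM in clf, 8.95 FPKM in lhp1 and 18.9 FPKM in WT. It was the 1 of 8 nitrate genes at 2-fold, against 3.42% of all loci. GOLS2, an enzyme of raffinose sugar synthesis under drought, had 2.72 FPKM in clf, 0.217 FPKM in lhp1 and 5.202 FPKM in WT, whereas the dehydrin LTI30 had 29.6 FPKM in clf, 62.3 FPKM in lhp1 and 34.1 FPKM in WT without being past the bound. BEE3, a brassinosteroid-responsive factor, had 16.3 FPKM in clf, 2.69 FPKM in lhp1 and 57.7 FPKM in WT. PCK1, which follows ICL on the way to sugar, had 209 FPKM in clf, 342 FPKM in lhp1 and 189 FPKM in WT.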
